A study of Mus musculus with 8 samples.

Results

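Genes of the blood vessel lining were followed in B16F10 melanomas grown under the skin of mice on a high cholesterol diet (HCD) or a normal diet (ND). The 10 genes, chosen by symbol as endothelial markers and receptors, are Pecam1, Cdh5, Kdr, Flt1, Tek, Tie1, Eng, Emcn, Esam and Egfl7, and they are 10 of the 34745 genes listed in each library. B16F10 is an established melanoma line of mouse origin, and all tumours grew in C57BL/6J mice after culture of the cells in DMEM with serum. RNA-seq was made from 4 tumour samples of mice on HCD (HCD 1 to HCD 4) and 4 of mice on ND (ND 1 to ND 4), and the labels give neither the cholesterol content nor the duration of the diets. Nothing in the labels ties each tumour to a mouse of its own. The p-values therefore speak of the spread among these 8 libraries, part of which may be technical.

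Endothelial cells line blood vessels and are held together by junction proteins such as VE-cadherin and PECAM1. They grow towards vascular endothelial growth factor A, the product of Vegfa, which they sense through the receptor VEGFR2 (Kdr), while VEGFR1 (Flt1) binds the same ligand and largely acts as a decoy. Angiopoietins act on the receptor TIE2 (Tek) with its partner TIE1 and set how quiescent or unstable a vessel is, and in solid tumours Vegfa is typically made by the tumour cells under low oxygen.

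The libraries held 14599222 to 17722093 counts. ND 2, ND 3 and ND 4 stood apart from the other 5 libraries: they had counts on 18088 to 18224 genes, against 16285 to 16728 in the HCD libraries and 16745 in ND 1. Among genes of olfactory and vomeronasal receptors, 406 to 427 had counts in ND 2 to ND 4, against 8 to 13 in the other 5 libraries. Transcripts of mitochondrial genes made up 11.42% to 12.91% of the counts in HCD and 13.66% to 14.69% in ND. ND 1 is the only ND library outside that split, so results for the 10 genes, Vegfa and most other genes named with values are also given as an ND 1 estimate. It sets the HCD libraries against ND 1, in a model that gives ND 2 to ND 4 a separate mean and assumes that ND 1 varies like the others.

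All 10 endothelial genes had counts in every library and passed the expression filter, and 9 of them were higher on average in HCD tumours, although no single gene passed the test. In edgeR's quasi-likelihood test over 13186 genes, 0 of the 10 had a Benjamini-Hochberg adjusted p under 0.05, against 0.182% of all tested genes. At an unadjusted p under 0.05, 5 of the 10 (Pecam1, Cdh5, Kdr, Flt1 and Esam) were higher in HCD and 0 were lower, against 7.21% of all genes higher and 7.49% lower. DESeq2 and limma-voom also called 0 of the 10 after adjustment, DESeq2 against 3.67% of all genes and limma-voom against 0.144%. Each had 5 of the 10 at an unadjusted p under 0.05, against 14.4% of all genes in DESeq2 and 14.9% in limma-voom, in either direction. DESeq2 gave Tek no adjusted p. The median log2 fold change, HCD over ND, was 0.28 for the 10 genes and 0.00494 for all tested genes, and 51.1% of all tested genes had a value above 0. In bulk tumour RNA, more cells of a type and more RNA per cell cannot be told apart.

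**Figure D1:**
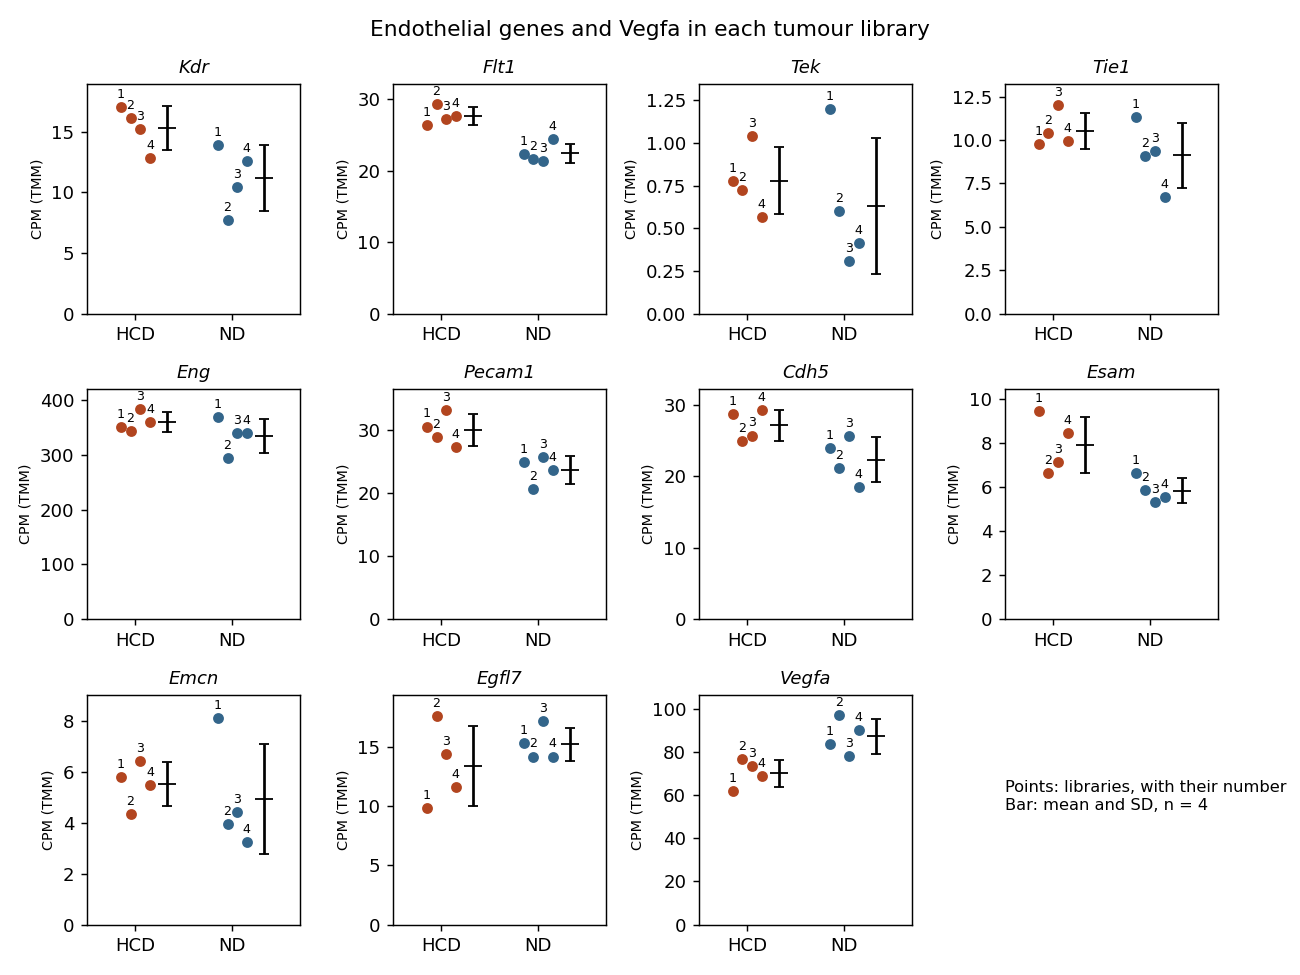
CPM, counts scaled to a common library total with TMM factors (linear axes from 0), of the 10 endothelial genes and Vegfa, with HCD to the left of ND; each point is a library with its number, and the bar is the mean and SD of 4 libraries. All 4 HCD points lie above all 4 ND points for Flt1, Pecam1 and Esam, and below them for Vegfa.

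For Pecam1, Flt1 and Esam all 4 HCD values lay above all 4 ND values, which held for 4.94% of all tested genes. The opposite order, all HCD values below all ND values, was found in 0 of the 10 genes and in 4.73% of all tested genes. In the ND 1 estimates, 5 of the 10 genes were higher in HCD and the median was 0.05. That model called 5 genes of 13186, and the comparison of all ND libraries called 24.

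The order of the genes by level was taken from the deposited FPKM, in which each count is divided by the length of the gene and the total of the library. Eng, an auxiliary receptor for ligands of the TGF-beta family, had the highest level, with 50.0 ± 2.23 FPKM in HCD and 45.2 ± 4.34 FPKM in ND (SD, n = 4 each, here and throughout). Its mean over the 8 libraries was 7.68 times that of the next gene, Cdh5, which had 6.90 ± 0.532 FPKM in HCD and 5.50 ± 0.759 FPKM in ND. Pecam1 came after them with a mean of 3.00 FPKM over the 8 libraries.

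Esam, Egfl7, Flt1 and Tie1 had neighbouring means of 2.07, 1.85, 1.74 and 1.63 FPKM. Each was at most 1.12 times the next in that order and their ranges over the 8 libraries overlapped, so their order is not set beyond the spread. Kdr averaged 1.38 FPKM and Emcn 0.803 FPKM. Tek was lowest by far, at 0.105 ± 0.0266 FPKM in HCD and 0.0825 ± 0.0525 FPKM in ND, and Emcn was 8.59 times as high. Vegfa, the ligand, lay between Eng and Cdh5 with a mean of 7.56 FPKM.

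These levels depend on the gene lengths behind the deposited values, which were longer than the joined exons of GENCODE M21 for 9 of the 10 genes. With the M21 lengths Eng stayed first, at 86.0 FPKM and 14.6 times the next gene, and Tek stayed last. Egfl7 and Esam changed places, as did Flt1 and Tie1.

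**Figure D2:**
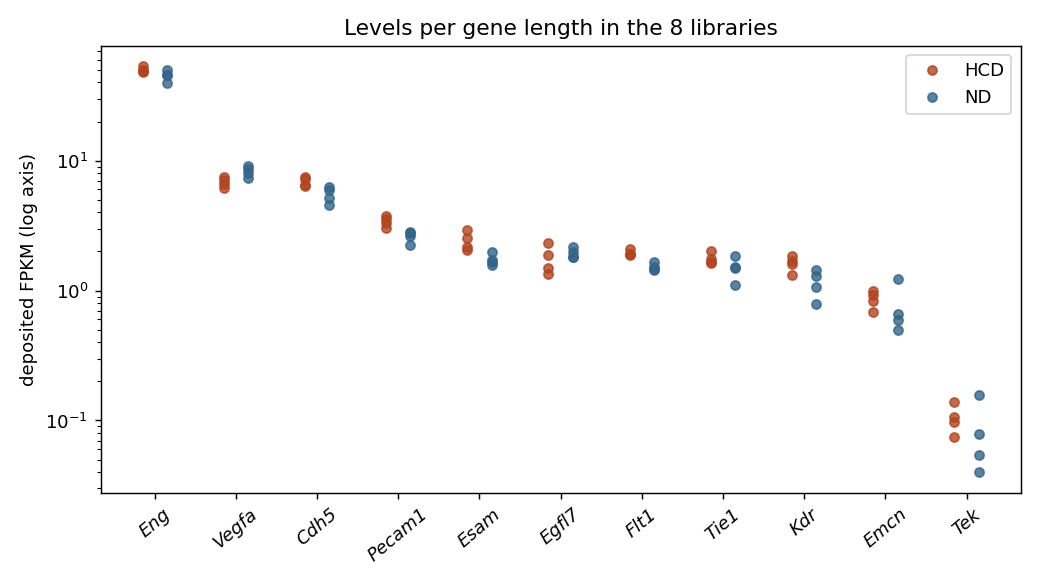
Deposited FPKM (log axis) of the 10 endothelial genes and Vegfa in order of their mean, with 4 HCD points to the left of 4 ND points for each gene. Eng lies between 39.5 and 53.3 FPKM, while Tek lies between 0.0399 and 0.158 FPKM.

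Upstream sequence was read for the genes that RefSeq's promoter table holds, since genes with a shared cell type can be compared for shared letters. The table matched 7 of the 10 genes (Kdr, Flt1, Tek, Tie1, Eng, Emcn and Egfl7, the last with 3 start sites), in build GRCm38.p6. The 250 bases before each start were searched on both strands for AGGAAG, which reads CTTCCT on the other strand and is a core that ETS factors bind, a family known for its part in endothelial promoters. They were also searched for ACGTG, which reads CACGT on the other strand and is one form of the core that hypoxia-inducible factors bind. The form GCGTG was not searched, so a window without ACGTG may still hold that core. Shown 5′ to 3′ on the strand of the gene, with matches in capitals, are both VEGF receptors, Eng as the gene with the highest level, the second start of Egfl7 as the gene that was lower in HCD, and the first start of Vegfa.
Flt1 (chr5:147726012-147726261, minus strand): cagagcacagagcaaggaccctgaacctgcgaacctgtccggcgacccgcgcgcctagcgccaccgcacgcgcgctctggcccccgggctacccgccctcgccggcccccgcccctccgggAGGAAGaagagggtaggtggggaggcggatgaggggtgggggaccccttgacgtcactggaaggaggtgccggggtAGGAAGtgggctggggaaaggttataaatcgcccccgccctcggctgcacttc
Kdr (chr5:75978456-75978705, minus strand): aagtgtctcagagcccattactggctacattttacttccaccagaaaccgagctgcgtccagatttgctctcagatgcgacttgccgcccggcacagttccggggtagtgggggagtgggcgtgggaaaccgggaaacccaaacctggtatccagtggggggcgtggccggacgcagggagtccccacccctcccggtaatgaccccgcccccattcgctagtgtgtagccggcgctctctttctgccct
Eng (chr2:32646345-32646594, plus strand): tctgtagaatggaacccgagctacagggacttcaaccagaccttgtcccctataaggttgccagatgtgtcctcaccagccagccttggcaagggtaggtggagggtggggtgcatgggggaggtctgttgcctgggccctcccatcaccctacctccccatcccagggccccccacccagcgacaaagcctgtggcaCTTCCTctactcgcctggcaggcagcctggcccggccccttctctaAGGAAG
Egfl7, start 2 (chr2:26583615-26583864, plus strand): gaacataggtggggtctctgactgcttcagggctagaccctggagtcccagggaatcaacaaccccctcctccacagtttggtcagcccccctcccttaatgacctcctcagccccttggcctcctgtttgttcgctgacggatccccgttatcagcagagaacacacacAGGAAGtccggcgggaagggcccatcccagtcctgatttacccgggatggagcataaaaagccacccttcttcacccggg
Vegfa, start 1 (chr17:46032378-46032627, minus strand): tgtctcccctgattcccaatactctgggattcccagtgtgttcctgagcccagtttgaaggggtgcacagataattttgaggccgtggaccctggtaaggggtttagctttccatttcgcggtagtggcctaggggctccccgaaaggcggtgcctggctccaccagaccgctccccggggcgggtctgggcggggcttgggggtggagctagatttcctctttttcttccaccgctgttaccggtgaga

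AGGAAG was present in 6 of the 9 windows, against 29.6% of the 32536 windows of all genes. By gene it was present in 5 of the 7, but Egfl7 has several windows and no share by gene was taken. Flt1 held 2 matches, 129 and 53 bases before the start, and Eng held 2, at 52 and 6 bases before it. Tie1, Emcn and the first and second starts of Egfl7 also held it, while Kdr, Tek, the third start of Egfl7 and Vegfa had no match in these windows. ACGTG was found in 0 of the 9 windows and in 16.7% of all windows. Of the 2 Vegfa starts in the table, the second, not printed here, held 1 ACGTG match on the other strand, 211 bases before the start, and the first held none. The window of that second start (chr17:46025164-46025413) lies within the Vegfa gene itself (chr17:46016993-46032369), so its letters are not upstream of the whole gene. The same holds for every Egfl7 window, the printed one included, as that gene spans chr2:26580014-26593120. Most of the Tie1 window (chr4:118489850-118490099) also lies within its gene, which reaches to 118490061. A match is a description of the letters, and binding was not measured.

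The VEGF receptors were both higher on average in HCD. Kdr (ENSMUSG00000062960, chr5:75932827-75978458, mm10), the main signalling receptor for Vegfa on endothelium, had 17.0, 16.1, 15.2 and 12.8 CPM in HCD 1 to HCD 4, against 13.9, 7.72, 10.4 and 12.6 CPM in ND 1 to ND 4. The groups overlapped, since ND 1 lay above HCD 4, and ND 2 was the lowest library. Kdr averaged 15.3 ± 1.81 CPM in HCD and 11.2 ± 2.71 CPM in ND, which is 0.45 as a log2 fold change (SE 0.179, adjusted p = 0.285). The ND 1 estimate was 0.14.

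Flt1 (ENSMUSG00000029648, chr5:147561604-147726011), the decoy-like receptor whose 2 upstream matches are shown above, had 26.4, 29.4, 27.2 and 27.7 CPM in HCD 1 to HCD 4, against 22.3, 21.6, 21.4 and 24.4 CPM in ND 1 to ND 4. Every HCD value lay above every ND value, and ND 1 fell among the other ND libraries. The means were 27.7 ± 1.27 CPM in HCD and 22.4 ± 1.39 CPM in ND, which is 0.30 as a log2 fold change (SE 0.0842, adjusted p = 0.148). Flt1 had the smallest p of the 10 genes, and its ND 1 estimate was 0.31.

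The angiopoietin receptors had higher means in HCD within wide spreads. Tek (ENSMUSG00000006386, chr4:94739289-94874976), which encodes TIE2, had 0.779, 0.727, 1.04 and 0.567 CPM in HCD 1 to HCD 4, against 1.20, 0.603, 0.309 and 0.416 CPM in ND 1 to ND 4. These rest on 10 to 18 counts per HCD library and 5 to 21 per ND library, and ND 1 was the highest of all 8. The log2 fold change was 0.28 with an SE of 0.449 (adjusted p = 0.83), so a difference was not detectable at this depth. The ND 1 estimate was -0.62.

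Tie1 (ENSMUSG00000033191, chr4:118471191-118490061), the partner of TIE2, had 9.77, 10.4, 12.0 and 9.93 CPM in HCD 1 to HCD 4, against 11.3, 9.10, 9.38 and 6.73 CPM in ND 1 to ND 4. ND 1 was second only to HCD 3, and ND 4 was lowest. Means of 10.5 ± 1.02 CPM in HCD and 9.14 ± 1.88 CPM in ND gave a log2 fold change (HCD over ND) of 0.20 (SE 0.163, adjusted p = 0.631) and an ND 1 estimate of -0.11.

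Eng (ENSMUSG00000026814, chr2:32646595-32682669), the receptor for BMP9 and other TGF-beta family ligands, had 351, 345, 385 and 361 CPM in HCD 1 to HCD 4, against 369, 294, 340.2 and 339.8 CPM in ND 1 to ND 4. The groups overlapped, with ND 1 above 3 of the HCD libraries. It averaged 361 ± 17.5 CPM in HCD and 336 ± 30.9 CPM in ND, and had the narrowest span of the 10 genes, the highest library being 1.31 times the lowest. Its log2 fold change was 0.10 (SE 0.0757, adjusted p = 0.585) and its ND 1 estimate -0.03. Exons of Eng share 61 bases with Fpgs on the opposite strand, and the sources used here do not say whether the counting used strand.

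Of the junction genes, all 3 were higher on average in HCD. Pecam1 (ENSMUSG00000020717, chr11:106654217-106750628) encodes CD31, an adhesion molecule at endothelial contacts that platelets and leukocytes also carry. It had 30.6, 29.0, 33.2 and 27.4 CPM in HCD 1 to HCD 4, against 24.9, 20.6, 25.7 and 23.7 CPM in ND 1 to ND 4. No HCD value overlapped the ND values. Means of 30.1 ± 2.49 CPM in HCD and 23.7 ± 2.25 CPM in ND corresponded to 0.34 as a log2 fold change (SE 0.101, adjusted p = 0.164). The ND 1 estimate was 0.27.

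Cdh5 (ENSMUSG00000031871, chr8:104101625-104144511) encodes VE-cadherin, the cadherin of endothelial junctions, largely restricted to this cell type. It had 28.7, 24.9, 25.7 and 29.2 CPM in HCD 1 to HCD 4, against 24.0, 21.1, 25.6 and 18.5 CPM in ND 1 to ND 4. Only ND 3 reached into the range of the HCD libraries. The means were 27.1 ± 2.11 CPM in HCD and 22.3 ± 3.12 CPM in ND, and the log2 fold change was 0.28 (SE 0.115, adjusted p = 0.299). The ND 1 estimate was 0.17.

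Esam (ENSMUSG00000001946, chr9:37528078-37538319), a tight junction adhesion molecule of endothelium and platelets, had 9.47, 6.66, 7.15 and 8.45 CPM in HCD 1 to HCD 4, against 6.64, 5.85, 5.31 and 5.55 CPM in ND 1 to ND 4. The groups did not overlap, but HCD 2 and ND 1 almost touched. It averaged 7.94 ± 1.27 CPM in HCD and 5.84 ± 0.577 CPM in ND, which is 0.44 as a log2 fold change (SE 0.159, adjusted p = 0.243), and the ND 1 estimate was 0.26.

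Emcn was like Tek, while Egfl7 went the other way. Emcn (ENSMUSG00000054690, chr3:137341067-137432185), a sialomucin of capillary and venous endothelium, had 5.82, 4.36, 6.46 and 5.50 CPM in HCD 1 to HCD 4, against 8.12, 3.98, 4.45 and 3.26 CPM in ND 1 to ND 4. As for Tek, ND 1 was the highest of all libraries. The means of 5.54 ± 0.878 CPM in HCD and 4.95 ± 2.17 CPM in ND corresponded to 0.16 as a log2 fold change (SE 0.276, adjusted p = 0.849), and the ND 1 estimate was -0.55.

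Egfl7 (ENSMUSG00000026921, chr2:26580014-26593120), a factor secreted by endothelial cells into the matrix and the host gene of miR-126, was the only one of the 10 with a lower mean in HCD. It had 9.89, 17.6, 14.4 and 11.6 CPM in HCD 1 to HCD 4, against 15.3, 14.2, 17.2 and 14.2 CPM in ND 1 to ND 4. The HCD libraries held both the highest and the lowest value. It averaged 13.4 ± 3.37 CPM in HCD and 15.2 ± 1.41 CPM in ND, and the log2 fold change was -0.19 (SE 0.171, adjusted p = 0.671). The ND 1 estimate had the same value. The exons of Egfl7 overlap those of Agpat2 on the opposite strand, so its counts are uncertain to that extent.

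Over the libraries, the 10 genes did not split cleanly by diet. As a mean over the genes of log2 CPM minus each gene's average, HCD 1 to HCD 4 lay at 0.13, 0.10, 0.22 and 0.05, against 0.17, -0.25, -0.17 and -0.26 for ND 1 to ND 4. ND 1 thus lay within the range of the HCD libraries. The lowest library was ND 2, ND 3 or ND 4 for 9 of the 10 genes, 3 genes each, and HCD 1 for Egfl7. The highest was HCD 3 for Pecam1, Tie1 and Eng, and ND 1 for Tek and Emcn.

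**Figure D3:**
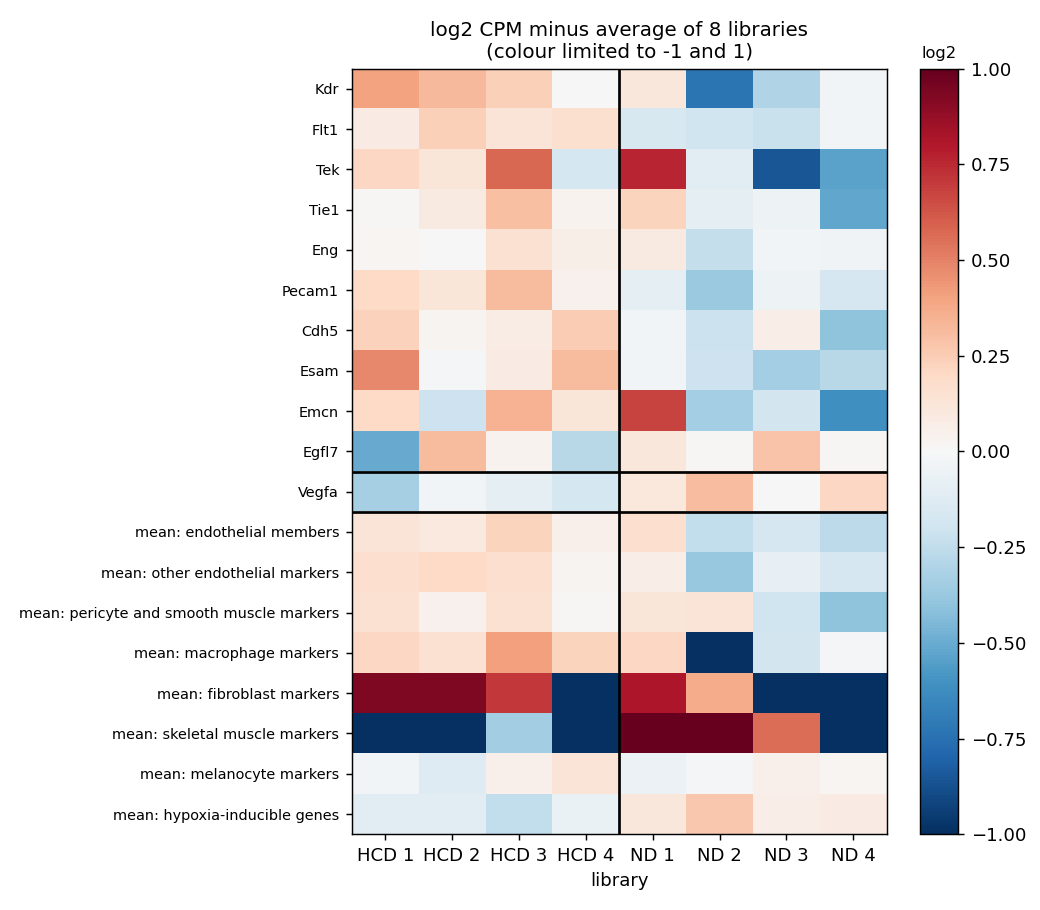
Log2 CPM minus the average over the 8 libraries (colour, limited to -1 and 1) for each endothelial gene, Vegfa and the means of marker lists, with the HCD libraries left of the ND libraries. The mean of the 10 endothelial genes is positive in HCD 1 to HCD 4 and ND 1 and negative in ND 2 to ND 4.

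The genes whose profile was nearest to the mean of the 10, by the root mean square difference of centred log2 CPM over the 8 libraries, were Hacd4 (0.0577), Arap1 (0.0601), Lrp1 (0.0661), Pced1a (0.0691) and 6530402F18Rik (0.0732). Of 13176 other genes, 35 lay within 0.1, while the mean profile itself had an SD of 0.194. None of the nearest 5 is on the lists of endothelial genes used here.

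Vegfa (ENSMUSG00000023951, chr17:46016993-46032369) had a lower mean in HCD, but the difference did not pass the test over all genes. It had 62.0, 76.5, 73.3 and 69.0 CPM in HCD 1 to HCD 4, against 83.7, 96.9, 77.9 and 90.2 CPM in ND 1 to ND 4. Every HCD value lay below every ND value, the order opposite to that of Pecam1, Flt1 and Esam. Means of 70.2 ± 6.28 CPM in HCD and 87.2 ± 8.18 CPM in ND corresponded to -0.31 as a log2 fold change (SE 0.0918, adjusted p = 0.164), and the ND 1 estimate was -0.25.

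Of the 7 tested ligands of these receptors, Vegfa included, 0 passed the test in edgeR. In DESeq2 0 of the 5 with an adjusted p passed, and Angpt1 and Vegfd received none. At an unadjusted p under 0.05 Angpt1 was higher and Vegfa lower, against 7.21% of all genes higher and 7.49% lower. Of the 7 ligands, 4 had a higher and 3 a lower mean in HCD. Vegfb, which binds Flt1, had a log2 fold change of 0.07 (adjusted p = 0.708), Pgf, also a ligand of Flt1, had -0.10 (adjusted p = 0.898) and Vegfc, a ligand mainly of Flt4, had 0.01 (adjusted p = 0.985). Angpt2, the angiopoietin that destabilizes vessels, averaged 77.5 ± 3.2 CPM in HCD and 83.0 ± 9.08 CPM in ND (adjusted p = 0.652), with an ND 1 estimate of -0.20. Of the tested ligands Vegfd was lowest, at 0.638 ± 0.361 CPM in HCD and 0.572 ± 0.458 CPM in ND. Angpt1, which activates TIE2, was next, at 1.53 ± 0.218 CPM in HCD and 0.864 ± 0.34 CPM in ND. Angpt1 rests on 23 to 29 counts per HCD library and 7 to 18 per ND library. Its groups did not overlap, but its log2 fold change of 0.83 had an SE of 0.336 (adjusted p = 0.297) and its ND 1 estimate was also 0.83. Its exons overlap Gm17473 on the opposite strand.

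**Figure D4:**
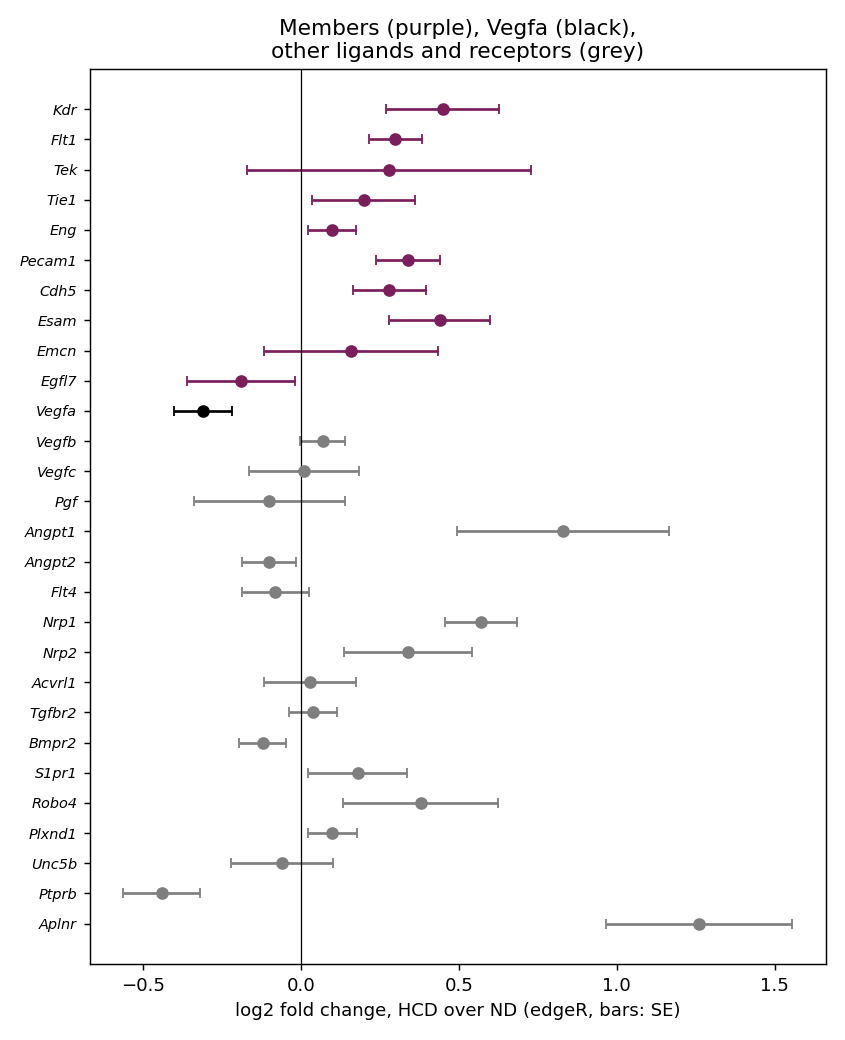
Log2 fold change, HCD over ND, with its SE (edgeR) for the 10 endothelial genes in purple, Vegfa in black and the other ligands and receptors in grey. Kdr has the highest value of the 10 genes at 0.45, Egfl7 is at -0.19 and Vegfa is at -0.31.

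Whether the endothelial genes differed from Vegfa in their response was tested directly, on the log2 ratio of each gene to Vegfa within a library. The ratio was higher in HCD for 5 of the 10 genes after adjustment over all 13185 genes (limma), against 12.9% of all genes, and a ratio lower in HCD was called for 0 of the 10 and 0.114% of all genes. Vegfa was taken as the partner knowing that it was lower in HCD, and all these ratios share its values, so they are no independent support for one another.

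Flt1 relative to Vegfa had mean log2 ratios of -1.34 in HCD and -1.95 in ND, a difference of 0.61 with a 95% interval of 0.33 to 0.89 (adjusted p = 0.0288). Kdr differed from Vegfa by 0.79 (0.31 to 1.26, adjusted p = 0.0398) and Pecam1 by 0.65 (0.31 to 1.00, adjusted p = 0.0324). The junction genes Esam and Cdh5 differed by 0.74 (0.29 to 1.19, adjusted p = 0.0414) and 0.60 (0.22 to 0.98, adjusted p = 0.0455).

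Eng, with 0.42 (0.13 to 0.71, adjusted p = 0.0527), and Tie1, with 0.53 (0.11 to 0.96, adjusted p = 0.0736), missed the threshold. Intervals of Emcn (-0.09 to 1.17), Tek (-0.24 to 1.60) and Egfl7 (-0.29 to 0.48) included 0. The number called was 0 in the ND 1 estimates, 0 without the mean-variance trend, and 2 with no expression filter. It was also 0 without HCD 1, HCD 4, ND 2 or ND 4, 1 without HCD 3, 3 without ND 1 and 6 without ND 3. The share of all genes called moved too: it was 13% with all libraries in either direction, 0% without HCD 1, 0.0822% without HCD 4 and 28.4% without ND 3. At an unadjusted p under 0.05, 7 of the 10 genes differed from Vegfa with all libraries, against 41.8% of all genes, and 7 without the trend, against 37.8%. In the ND 1 estimates it was 1 of the 10, against 12.7%.

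The 5 differences called with all libraries stayed above 0 when single libraries were left out, but this was not particular to them. The uncalled Eng (0.30 to 0.48), Tie1 (0.38 to 0.66), Emcn (0.36 to 0.82) and Tek (0.51 to 1.01) did so too, and only Egfl7 did not (-0.0043 to 0.21). Flt1 minus Vegfa stayed between 0.55 and 0.65, Pecam1 minus Vegfa between 0.53 and 0.75, and Cdh5 minus Vegfa between 0.50 and 0.72. Kdr minus Vegfa ran from 0.57 to 0.92 and Esam minus Vegfa from 0.59 to 0.86. The ND 1 estimates of these differences were 0.57 for Flt1, 0.53 for Pecam1, 0.50 for Esam, 0.43 for Cdh5 and 0.39 for Kdr.

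**Figure D5:**
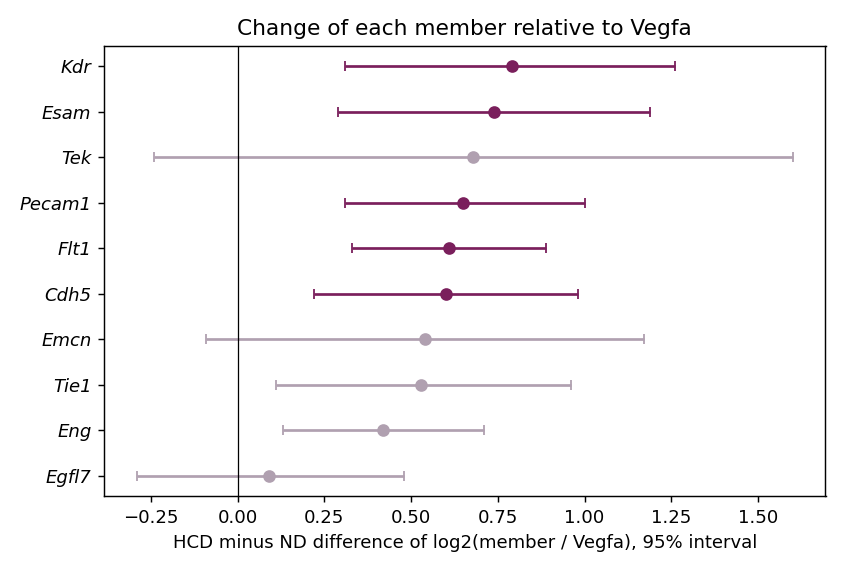
HCD minus ND difference of log2(gene / Vegfa) with its 95% interval (limma) for the 10 endothelial genes, in order of size. The 5 genes in dark colour, Kdr, Esam, Pecam1, Flt1 and Cdh5, had an adjusted p under 0.05, and the other 5 are pale.

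The same comparison against Cdh5, added after the values were seen, asked whether the genes differed among themselves. None of the other 9 differed from Cdh5 after adjustment (limma, 0 of 9), against 0.0228% of all genes higher and 1.38% lower relative to it. Egfl7 had the widest gap, -0.50 (-0.95 to -0.06), with an unadjusted p of 0.0289 and an adjusted p of 0.144, and was the only one with an unadjusted p under 0.05. The other 8 lay between -0.18 for Eng and 0.19 for Kdr. Vegfa relative to Cdh5 was -0.60 (-0.96 to -0.24, adjusted p = 0.0744 over this set of ratios).

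The further receptors and coreceptors of endothelium gave a mixed picture: 8 of 12 had a higher mean in HCD, with a median log2 fold change of 0.07. In edgeR 0 passed the test. At an unadjusted p under 0.05, 2 were higher and 1 lower in edgeR, against 7.21% and 7.49% of all genes. DESeq2 called 2, Nrp1 and Aplnr, against 3.67% of all genes. Nrp1, the coreceptor that joins Kdr in binding Vegfa, had 48.8, 37.7, 38.5 and 44.7 CPM in HCD 1 to HCD 4, against 31.3, 28.8, 30.0 and 24.2 CPM in ND 1 to ND 4. The groups did not overlap, and its log2 fold change was 0.57 (SE 0.113, adjusted p = 0.0727 in edgeR and 0.00107 in DESeq2). Aplnr, the apelin receptor, averaged 3.55 ± 0.862 CPM in HCD and 1.49 ± 0.473 CPM in ND, also without overlap (log2 fold change 1.26, adjusted p = 0.108 in edgeR and 0.0114 in DESeq2). The ND 1 estimates were 0.44 for Nrp1 (adjusted p = 0.411) and 1.31 for Aplnr (adjusted p = 0.399).

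Ptprb, the endothelial phosphatase VE-PTP that restrains TIE2 and acts at VE-cadherin junctions, had a lower mean in HCD. It had 8.69, 8.48, 8.08 and 8.34 CPM in HCD 1 to HCD 4, against 11.1, 13.3, 11.2 and 10.1 CPM in ND 1 to ND 4, without overlap. Its log2 fold change was -0.44 (SE 0.121, adjusted p = 0.142) and its ND 1 estimate -0.40. The VEGF receptor Flt4, which mainly binds Vegfc, and the Eng partner Acvrl1 had log2 fold changes of -0.08 and 0.03, with adjusted p-values of 0.8 and 0.954. The other 7 receptors lay between -0.12 for Bmpr2 and 0.38 for Robo4, with adjusted p-values of 0.486 and above.

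Of other endothelial markers, 18 of 23 tested had a higher mean in HCD, with a median of 0.21. At an unadjusted p under 0.05, 6 were higher in HCD and 0 lower, against 7.21% and 7.49% of all genes. After adjustment 0 passed in edgeR. Pdgfb, which recruits pericytes, averaged 5.94 ± 0.568 CPM in HCD and 3.94 ± 0.419 CPM in ND (adjusted p = 0.138). Esm1, a marker of sprouting tip cells, averaged 13.8 ± 1.66 CPM in HCD and 9.23 ± 1.81 CPM in ND (adjusted p = 0.148 in edgeR and 0.0378 in DESeq2). The leukocyte adhesion gene Vcam1 averaged 9.68 ± 2.00 CPM in HCD and 4.83 ± 2.11 CPM in ND (adjusted p = 0.164 in edgeR and 0.0261 in DESeq2). The ND 1 estimates were 0.35 for Vcam1 (adjusted p = 0.763, log2 fold change 1.00 with all libraries), 0.31 for Esm1 (adjusted p = 0.677, against 0.58) and 0.45 for Pdgfb (against 0.59).

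The summed level of these markers was 328 to 426 CPM in HCD and 354 to 425 CPM in ND, and the groups overlapped. Much of that sum is Vwf, the von Willebrand factor gene, which averaged 169 ± 38.1 CPM in HCD and 198 ± 19.1 CPM in ND (adjusted p = 0.519). Without Vwf, a choice made after its values were seen, the other 25 genes summed to 194.6 to 220 CPM in HCD and 169.5 to 202.5 CPM in ND, with only HCD 4 inside the ND range.

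Notch genes of vessels had a higher mean in HCD in 8 of 10, and endothelial transcription factors in 8 of 13, with medians of 0.22 and 0.17. In edgeR 0 of either list passed after adjustment. At an unadjusted p under 0.05, 1 Notch gene was lower, and 3 transcription factors were higher and 3 lower. Of all genes 7.21% were higher and 7.49% lower at that threshold. Among these factors DESeq2 called Klf4, against 3.67% of all genes. Dll4, the Notch ligand of tip cells, had a log2 fold change of 0.57 (adjusted p = 0.414) and Sox18, an arterial and lymphatic regulator, had 0.69 (adjusted p = 0.17). Their ND 1 estimates were 0.80 and 0.37. Ets1, of the ETS family, averaged 66.8 ± 5.54 CPM in HCD and 126 ± 54.2 CPM in ND, a log2 fold change of -0.92 (adjusted p = 0.154). The ND mean rests on ND 2 and ND 4, at 162 and 183 CPM, while ND 1 and ND 3 had 83.8 and 76.2 CPM, and the ND 1 estimate was -0.33 (adjusted p = 0.769). For Klf4 the log2 fold change was -0.94 (adjusted p = 0.156 in edgeR and 0.0279 in DESeq2) and the ND 1 estimate -0.13. Of the lymphatic markers, 3 of 6 were tested, all 3 higher in mean with 0 at an unadjusted p under 0.05 in edgeR, and Ccl21a was at 0 in all libraries.

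Markers of other tumour cell types were set beside the endothelial genes, whose summed level was 484 to 527 CPM in HCD and 399 to 496 CPM in ND. The sum averaged 499 ± 19.4 CPM in HCD and 451 ± 40.3 CPM in ND. Most of it is Eng, at 361 ± 17.5 CPM in HCD and 336 ± 30.9 CPM in ND, so it says little of the other members. Pericyte and smooth muscle markers summed to 97.2 to 123 CPM in HCD and 70.8 to 110.5 CPM in ND, with 6 of 10 higher in mean and a median log2 fold change of 0.19. At an unadjusted p under 0.05 in edgeR 2 were higher and 0 lower, against 7.21% and 7.49% of all genes. After adjustment 0 passed in edgeR, and DESeq2 called 1, against 3.67% of all genes. This was Acta2 (log2 fold change 0.76, adjusted p = 0.185 in edgeR and 0.0362 in DESeq2), whose ND 1 estimate was 0.44. Macrophage markers summed to 469 to 619 CPM in HCD and 305 to 528 CPM in ND, with 9 of 10 higher in mean and ND 2 lowest. Their median log2 fold change was 0.50, against 0.28 for the 10 endothelial genes. At an unadjusted p under 0.05 in edgeR 3 were higher and 0 lower, against 7.21% and 7.49% of all genes. Mrc1, the macrophage mannose receptor, averaged 20.3 ± 4.37 CPM in HCD and 9.05 ± 1.96 CPM in ND, without overlap. Its log2 fold change was 1.17, with an adjusted p of 0.0506 in edgeR, 0.00764 in edgeR with no filter, 0.0355 with robust dispersion and 1.04e-05 in DESeq2, and the ND 1 estimate was 0.81 (adjusted p = 0.378). When single libraries were left out it passed in 0 of 8 edgeR fits (adjusted p from 0.0662 to 0.15). As for the endothelial mean, ND 1 was the one ND library within the HCD range of the macrophage sum.

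Platelets also carry Pecam1 and Esam, which are not on the list of platelet and megakaryocyte markers. That list summed to 57.0 to 85.7 CPM in HCD and 59.4 to 92.9 CPM in ND, with 1 of 4 higher in mean. Nearly all of the sum is Itgb3, at 66.2 ± 13.3 CPM in HCD and 68.1 ± 15.3 CPM in ND, so it says little of the other genes listed. Fibroblast markers summed to 462 to 742 CPM in HCD and 459.9 to 723 CPM in ND, red cell markers to 109.8 to 1348 CPM and 110.0 to 1150 CPM, and both spans overlapped almost wholly. Most of the fibroblast sum is Fn1, at 406 ± 57.1 CPM in HCD and 448 ± 46.7 CPM in ND (log2 fold change -0.14). Of the fibroblast markers 8 of 9 tested had a higher mean in HCD (median 0.65), and of the red cell markers 7 of 7 (median 0.95). In edgeR 0 of either list had an unadjusted p under 0.05. Skeletal muscle markers had a lower mean in HCD for all 5 tested genes, with 0 passing in edgeR. In edgeR 5 were lower at an unadjusted p under 0.05, against 7.49% of all genes, and DESeq2 called 2, against 3.67%. Their sums were 3.27 to 6.23 CPM in HCD and 4.30 to 75.3 CPM in ND, highest in ND 1 and ND 2. Melanocyte markers, from the tumour cells, summed to 25885 to 30154 CPM in HCD and 28400 to 29985 CPM in ND. The part of these cell types in the endothelial values was not tested.

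Of the hypoxia-inducible genes, the group to which Vegfa belongs, 0 of 13 tested had a higher mean in HCD. At an unadjusted p under 0.05 in edgeR, 8 of the 13 were lower and 0 higher, against 7.49% and 7.21% of all genes. After adjustment 2 of the 13 were called, both lower, against 0.182% of all genes in either direction. The list was chosen with earlier results of these data known, so neither count is independent support. Ndrg1 averaged 239 ± 14.5 CPM in HCD and 354 ± 18.5 CPM in ND (log2 fold change -0.57, adjusted p = 0.0225), and Kdm3a averaged 167 ± 14.7 CPM in HCD and 233 ± 4.64 CPM in ND (log2 fold change -0.48, adjusted p = 0.0459). The ND 1 estimates were about as large, -0.67 for Ndrg1 and -0.45 for Kdm3a, but neither passed, with adjusted p-values of 0.0767 for Ndrg1 and 0.339 for Kdm3a. When single libraries were left out, Kdm3a missed the threshold in 8 of 8 fits (adjusted p from 0.0664 to 0.138) and Ndrg1 in 5 of 8, those without ND 3, ND 4, HCD 1, HCD 3 or HCD 4 (up to 0.0926). The log2 fold changes in those fits ran from -0.61 to -0.54 for Ndrg1 and from -0.52 to -0.42 for Kdm3a. Both missed it with the replicate block (adjusted p = 0.166 for Ndrg1 and 0.2 for Kdm3a). Exons of Ndrg1, Dll4 and Vcam1 overlap predicted genes on the opposite strand, so their counts carry the same doubt as those of Eng.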

How the data were processed

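Each library's counts were deposited raw, in whole numbers for each Ensembl gene, and each library's FPKM, per the file headers, divide those counts by a gene length and the library total, as the values show. Named in the submitters' processing notes, without roles, are mm10, edgeR, HTSeq, TopHat2 2.0.9 and CASAVA 1.8. The annotation and strand setting were not given in the sources used here. Gene names and coordinates come from GENCODE M21 (34267 of 34745 identifiers matched), and promoters from RefSeq (GRCm38.p6).

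Libraries were grouped by the diet in their titles. Counts were tested with edgeR 4.0.16 (quasi-likelihood F-test, TMM factors, expression filter with minimum count 10 and minimum total 15, R 4.3.3) with diet as the only term. It covered 13186 genes, holding at least 99.88% of each library's counts, and p-values were adjusted by Benjamini-Hochberg with a threshold of 0.05. SE was taken as the size of the log2 fold change divided by the root of F. The common biological coefficient of variation was 17.2%. Between libraries of 1 group, chi-square per degree of freedom was 14.5 to 37.6 (1 is sampling noise alone), so all 8 were kept as separate samples. Ratios to Vegfa or Cdh5 were tested with limma 3.58.1 on log2 CPM (prior count 2). The fits were run on simulated counts. Only the edgeR fit was held to set limits there, and Vegfa was left unchanged, so a fall of Vegfa was not simulated. Alternatives were DESeq2 1.42.0, limma-voom, other scaling factors, no filter, robust dispersion, a replicate block, a separate mean for ND 2 to ND 4 (for the ratios, added after seeing the data), other settings of limma and leaving out each library.

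The 10 genes and the 15 gene lists were chosen with earlier results of these data known. Named beside them were Vegfa, all listed ligands and receptors with a mean of at least 1 CPM, the 3 genes of smallest p in each other list, and the 5 genes with the nearest profile, 69 in all. Of the listed symbols, 2 matched no gene.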

Additional observations from a re-analysis of the deposited data

Results flagged for a closer look

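Among 138 groups of 4 libraries (69 named genes in HCD and in ND), 8 held a library far from the other 3 by Dixon's test, which chance alone does in about 5% of groups. None of the 8 concerns the 10 endothelial genes or Vegfa. Aplnr had 2.27 CPM in HCD 4, with the other HCD libraries at 3.82 to 4.10 CPM. The nearest-profile gene Lrp1 had 140.4 CPM in ND 1, with the other ND libraries at 108 to 109.6 CPM. The hypoxia-inducible gene Ndrg1 had 260.2 CPM in HCD 2, with the others at 229 to 233 CPM. Among markers of other cells, the macrophage gene C1qc had 95.2 CPM in HCD 3 (others 70.7 to 72.7), and the fibroblast gene Col1a2 had 18.5 CPM in HCD 4 (others 77.2 to 85.5). The muscle genes Acta1 and Myh4 had 1.33 CPM (others 0.242 to 0.34) and 0.692 CPM (others 0 to 0.0606) in HCD 3. The red cell gene Alas2 had 109 CPM in ND 4 (others 13.3 to 23.1).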

How the results depend on the processing

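Over 16 alternatives each, the 10 endothelial genes kept their direction in 156 of 160 fits, none passed the threshold (lowest adjusted p 0.0693), and Vegfa stayed lower in HCD. The 4 reversals came with a separate mean for ND 2 to ND 4: Tek -0.62, Tie1 -0.11, Eng -0.03 and Emcn -0.55, with a median over the 10 of 0.05. Other log2 fold changes that reversed there were Vegfc -0.01, S1pr1 -0.03, Robo4 -0.13, Lyve1 -0.14, Itga2b 0.05, Col1a2 -0.26, Lrp1 -0.13 and Pced1a -0.06, and, relative to Vegfa, Tek -0.32 and Emcn -0.30. With limma-voom Vegfc was -0.0049. The cause was not tested.

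All genes called numbered 24, against 437 with DESeq2, 93 with no filter, 50 with robust dispersion, 5 with the separate mean and 0 to 12 without single libraries. They were 0 without HCD 4 (1516 at an unadjusted p under 0.05) and 0 without ND 4 (1603). Of the 10 genes, 5 differed from Vegfa, against 2 with no filter, 0 with no trend, 0 with the separate mean and 0 to 6 without single libraries. Leaving out single libraries turned Vegfc (-0.12 to 0.12), Pgf (-0.27 to 0.13), Acvrl1 (-0.05 to 0.21), Unc5b (-0.22 to 0.03), Pdpn (-0.03 to 0.54), Prox1 (-0.06 to 0.09), Itga2b (-0.78 to 0.11), Itgb3 (-0.15 to 0.12), Mlana (-0.02 to 0.10) and the ratio of Egfl7 to Vegfa (-0.0043 to 0.21).

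The replicate numbers are shared between groups, but nothing says that they mark the same mouse or day. Deviations of same-numbered libraries correlated at 0.0249, -0.0113, -0.0676 and 0.107, and only ND 4 correlated best with its own number. With the numbers as a replicate block, 0 genes were called in edgeR (1634 at an unadjusted p under 0.05), and 5 of the 10 genes differed from Vegfa, with Cdh5 lost (adjusted p 0.0508) and Eng gained (0.0455).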
